A study of Mus musculus with 17 samples.

Results

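The genes described here are antiviral genes of the type I interferon response, a list of 40 taken by name and measured in the lungs of mice with endotoxemia. The list runs from sensors of viral nucleic acid through the 2'-5' oligoadenylate synthetase (OAS), IFIT and MX families to TRIM proteins and interferon regulatory factors. A gene counted as measured where a probe set of the Affymetrix MOE430A array named it and no other gene, and the probe set with the highest mean over all arrays stood for the gene. On this rule 34 of the 40 genes were measured, among 12393 genes in all. Ddx58, Oas1g, Ifi44, Herc6 and Xaf1 had no such probe set in the table used here, and the probe set of Isg15 also named another gene, so these 6 are not analysed here.

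Whole lungs came from 17 male mice, with 1 array per mouse. Wild-type mice (C57BL/6J) received saline and were studied at 22 h (n = 4), or received LPS (Escherichia coli endotoxin, 20 mg/kg intravenously) and were studied at 7 h (n = 3) or 22 h (n = 3). Mice labelled NOS2-/-, which lack the inducible NO synthase, received saline and were studied at 22 h (n = 1), or LPS and were studied at 7 h (n = 3) or 22 h (n = 3). No saline group was taken at 7 h, so LPS at 7 h was set against saline at 22 h, and the NOS2-/- mice had a single saline mouse as their control. The labels give no age and name no strain for the NOS2-/- mice beyond their shared supplier.

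Type I interferons are secreted when pattern receptors such as TLR4, the LPS receptor, or cytosolic sensors are engaged. They bind a shared receptor and, through the kinases JAK1 and TYK2, activate a transcription factor complex, of which IRF9 is a part, that binds the interferon-stimulated response element (ISRE) in the promoters of target genes. The products block viral entry, translation, genome copying and budding, and several of them, among them IRF7 and the cytosolic sensors, also feed back on the pathway, while USP18 and SOCS1 restrain it.

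All values below are log2 signals, all differences are between group means on that scale, and each SE is that of the limma fit. A probe set was called where its adjusted P was under 0.05 over 22626 probe sets. The wild-type LPS 22 h mouse with replicate number 2 stood apart: its array correlated with the other 2 of its group at 0.955 and 0.949, whereas every other pair within a group reached at least 0.992, and values without it are given beside many, though not all, of the results it touches. Lung markers such as Sftpc and Ager were present in all mice, with a mean over 7 markers of 12.63 to 13.26. The NOS2-/- saline mouse also carried squamous epithelial and skeletal muscle transcripts, with Krt4 at 14.21 against a mean of 8.44 in wild-type saline mice and a mean over 6 muscle markers of 10.73 against 6.90 to 7.07. The mean over 9 of 10 neutrophil markers rose from 9.15 to 9.49 in wild-type saline mice to 11.53 to 11.70 at 7 h and 11.64 to 11.83 at 22 h, and was 11.21 to 11.50 and 11.87 to 11.91 in NOS2-/- mice. In whole lung, a change in the number of cells that express a gene and a change in RNA per cell cannot be told apart, and the part of incoming cells in the results was not tested. The Nos2 probe set read 8.19 to 8.80 in wild-type and 8.99 to 9.25 in NOS2-/- mice 22 h after LPS, so it was not lower in the NOS2-/- mice. Whether it lies in the deleted part of the gene is not stated in the sources read here, so it does not check the genotype, which rests on the labels.

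Promoter sequence is shown for the members in which the letters of the ISRE core were found upstream of the gene start, since the ISRE is the element of the type I interferon pathway described above. The promoter table of RefSeq (GRCm38.p6), which holds the 250 bases before and 50 after each gene start, had an entry for 24 of the 34 measured members and none for Dhx58, Zbp1, Oas2, Ifi27l2a, Mx1, Mx2, Usp18, Parp14, Tor3a and Rtp4. The core, searched as GAAANNGAAA on both strands, was found in 11 of the 24 members (45.8%) and in 3.99% of all 27025 genes in that table. In 7 members a match lay before the start, and these stretches follow, each 5′ to 3′ on the strand of its gene, with the matches in capitals. A match on the opposite strand reads as the reverse complement, and neighbouring matches can overlap.
Ifit1 (chr19:34640765-34640833, plus strand): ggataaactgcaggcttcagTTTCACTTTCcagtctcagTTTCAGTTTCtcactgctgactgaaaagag
Ifit3 (chr19:34583353-34583436, plus strand): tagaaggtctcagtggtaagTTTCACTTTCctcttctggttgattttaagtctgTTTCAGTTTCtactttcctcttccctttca
Bst2 (chr8:71537567-71537622, minus strand): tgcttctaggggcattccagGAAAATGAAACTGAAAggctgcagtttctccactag
Rsad2 (chr12:26456543-26456592, minus strand): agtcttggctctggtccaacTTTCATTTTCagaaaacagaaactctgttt
Oas1a (chr5:120907526-120907565, minus strand): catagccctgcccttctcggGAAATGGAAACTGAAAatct
Oas3 (chr5:120777705-120777754, minus strand): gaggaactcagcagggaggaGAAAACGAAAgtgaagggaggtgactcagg
Trim30a (chr7:104465200-104465249, minus strand): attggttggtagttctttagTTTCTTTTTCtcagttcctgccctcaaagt
Ifit1, Ifit3, Bst2 and Oas1a held 2 matches each, overlapping in Bst2 and Oas1a, and Rsad2 and Oas3 held 1. In the other 4 members, Ifih1, Eif2ak2, Ifitm3 and Trim21, matches lay only after the start. A match is a run of letters and not a measured binding site, and members without a match may carry other forms of the element or carry it outside the window. Another motif that was searched, GAS (TTCNNNGAA), was found in 9 of the 24 members (37.5%) and in 9.55% of all genes, and its matches are not shown.

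**Figure D1:**
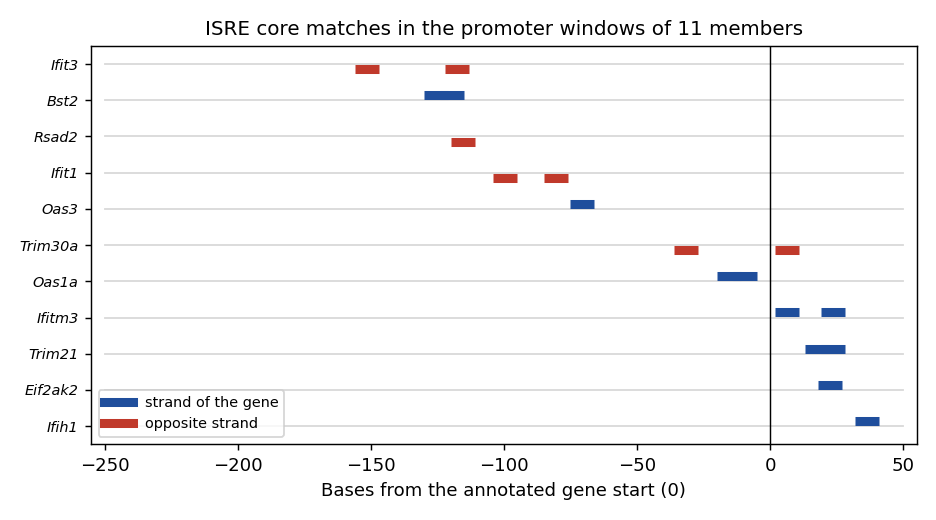
Position of each ISRE core match, in bases from the annotated gene start (0), in the 300-base promoter windows of the 11 measured members that hold one. Blue bars are on the strand of the gene and red bars on the opposite strand; 7 members have a match before the start and 4 only after it.

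Averaged over the 34 members, each centred on its mean over the 17 arrays, the signal was −1.36 to −1.30 in the wild-type saline mice and −1.51 in the NOS2-/- saline mouse. It was 0.82 to 1.00 in wild-type and 0.66 to 0.97 in NOS2-/- mice 7 h after LPS. At 22 h the wild-type mice were at 0.11, −0.33 and 0.03 and the NOS2-/- mice at 0.59, 0.52 and 0.52. The genotypes overlapped at 7 h, and at 22 h each NOS2-/- mouse lay above each wild-type mouse, also when the wild-type mouse that stood apart was set aside.

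**Figure D2:**
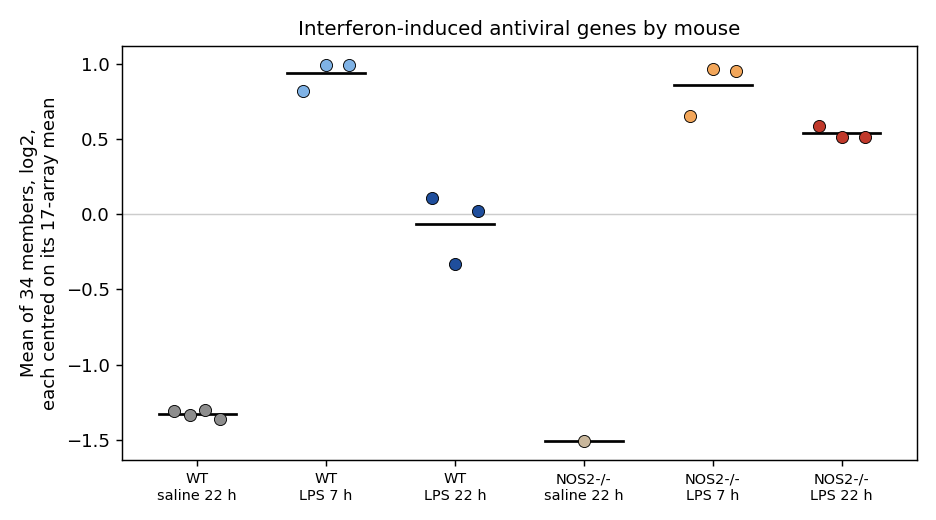
Mean log2 signal of the 34 members in each mouse (vertical axis, each member centred on its 17-array mean) by group; points are mice and lines are group means. At 22 h after LPS the 3 wild-type mice sit between −0.33 and 0.11 and the 3 NOS2-/- mice between 0.52 and 0.59.

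At 7 h after LPS, wild-type lungs held more transcript of every measured member. All 34 were called higher than in saline mice, where 14.4% of all probe sets were called higher and 17.9% lower, and the median member rose by 2.16 (4.46-fold) against a median of −0.05 over all probe sets. The highest rises were those of Rsad2, whose product viperin makes a nucleotide that stops viral polymerases (4.25 ± 0.12 SE), and of Ifit2 and Ifit1, which bind viral RNA and block translation (4.21 ± 0.23 and 3.91 ± 0.12). The lowest was that of Ifi27l2a, an interferon-induced membrane protein of the mouse (0.72 ± 0.13). In all 34 members the 3 LPS mice lay above the 4 saline mice, as did 20.4% of all probe sets, and in none did they lie below, as they did in 29.1% (two-sided exact permutation test, P = 0.0286 for each, the smallest that 3 against 4 mice allow).

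In NOS2-/- lungs at 7 h, 33 of 34 members were higher than in the saline mouse, against 8.78% of all probe sets, with a median of 2.31, and none was called lower, against 13.7%. Ifi27l2a was the exception, at 10.80, 11.22 and 10.94 after LPS and 10.91 in the saline mouse, while the wild-type saline mice were at 10.12 to 10.47. Its difference in NOS2-/- lungs was 0.07 ± 0.20, and its control was the single mouse with the foreign transcripts described above. Against the 4 wild-type saline mice, all 34 members were called higher in NOS2-/- lungs at both times, as were 15.4% of all probe sets at 7 h and 17.9% at 22 h.

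Between the genotypes at 7 h, limma called none of the 34 members, against 2.01% of all probe sets, 1.48% of them lower in NOS2-/- lungs, and 10 had an unadjusted P under 0.05. The median difference, NOS2-/- minus wild-type, was −0.08, against 0.03 over all probe sets. The differences ran from −0.41 ± 0.10 for Oas2 (adjusted P = 0.052), which makes the 2'-5' oligoadenylates that activate RNase L, to 0.70 ± 0.41 for Mx1 (adjusted P = 0.32), a dynamin-like GTPase. The NOS2-/- mice lay below all wild-type mice in 10 members, against 21.3% of all probe sets, and above them in none, against 26.6%. Without the wild-type 22 h mouse that stood apart, whose only part in this comparison is in the estimate of the spread, 11 members were called, and so were 26.9% of all probe sets, a share near that of the members. These were Dhx58 and Mx2, higher in NOS2-/- lungs, and Zbp1, Adar, Oas2, Bst2, Trim21, Irf9, Sp100, Samhd1 and Parp14, lower, at differences no larger than 0.51 in size. In the fit to all arrays, the second probe set of Zbp1 was called, at −0.45.

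By 22 h the members had come down in wild-type lungs. Compared to saline, 31 of 34 were still called higher, against 12.8% of all probe sets, but the median rise was 1.03 (2.04-fold; 1.15 without the mouse that stood apart), and 30 members were called lower than at 7 h, against 7.68% of all probe sets, with a median change of −1.02. Without that mouse 29 of them were called, Irf9 no longer, with a median of −0.89. None was called higher than at 7 h, against 3.15%. In all 34 members the 3 mice at 22 h lay below the 3 at 7 h, as did 15.4% of all probe sets, with exact permutation P = 0.1, the smallest that 3 against 3 mice allow. The share of the 7 h rise still present at 22 h had a median of 52.9% over the members and was below 50% in 16, and it was 60.3% and below 50% in 11 without the mouse that stood apart.

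The members that stood highest above saline in wild-type lungs at 22 h were Rsad2, Irf7 and, on 1 of its 2 probe sets, Zbp1. Rsad2 was at 9.55, 9.52, 9.84 and 9.66 in the saline mice, 13.78, 13.96 and 13.94 at 7 h, and 13.12, 12.65 and 12.90 at 22 h. Irf7, the regulator that drives interferon-α transcription, was at 9.11, 9.14, 10.06 and 9.18 in the saline mice and at 12.35, 12.10 and 12.30 at 22 h. Zbp1, a sensor of Z-form nucleic acid that triggers cell death, was at 7.96, 7.97, 7.99 and 7.89 in the saline mice and at 10.75, 10.71 and 10.71 at 22 h. In all these 3 genes the LPS and saline mice were far apart, and the rises at 22 h were 3.25 ± 0.12, 2.88 ± 0.18 and 2.77 ± 0.08. Zbp1 and Rsad2 were still called lower than at 7 h, Zbp1 by −0.54 ± 0.08, whereas the change of Irf7 was −0.45 with an adjusted P of 0.15. The second probe set of Zbp1 was 1.29 above saline at 22 h, and its change from 7 h was −1.40. Ifitm3, which restricts virus entry through endosomes, and Lgals3bp, a secreted glycoprotein, kept 87.9% and 88.7% of their 7 h rise, the highest shares of the list.

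At the other end, Trim25, Tor3a and Eif2ak2 were not called above saline in wild-type lungs at 22 h. Trim25, the ubiquitin ligase that activates RIG-I, was at 10.75, 10.79, 10.73 and 10.57 in the saline mice, 11.61, 11.75 and 11.70 at 7 h and 10.83, 10.11 and 10.81 at 22 h. Tor3a, an AAA+ ATPase of the endoplasmic reticulum, was at 8.76, 9.01, 8.61 and 8.75 in saline and 8.85, 8.74 and 8.79 at 22 h. Eif2ak2, the double-stranded RNA kinase PKR that halts translation, was at 8.52, 8.55, 8.53 and 8.59 in saline and 8.88, 8.42 and 8.80 at 22 h. The Tor3a mice at 22 h lay among the saline mice. For Trim25 and Eif2ak2, 2 of the 3 mice at 22 h lay above all saline mice, and the lowest was the one that stood apart. The differences from saline were −0.13 ± 0.14, 0.01 ± 0.10 and 0.15 ± 0.10, and without that mouse Trim25 was at 0.11 and Eif2ak2 was called higher at 0.29. All 3 genes have further probe sets: those of Trim25 were at −0.05, not called, and 0.45, called higher, and the other of Eif2ak2 was called higher at 0.56, while the other of Tor3a was at −0.21 and not called.

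In NOS2-/- lungs at 22 h, 32 of 34 members were called higher than in the saline mouse, against 11.6% of all probe sets, with a median rise of 1.88 (3.69-fold), and 27.6% of all probe sets were called in either direction. The exceptions were Ifi27l2a (−0.06 ± 0.20) and Adar, which edits adenosine to inosine in double-stranded RNA (0.26 ± 0.11), which was called without the wild-type mouse that stood apart. Compared to 7 h, 11 members were called lower, against 3.16% of all probe sets, and none higher, against 4.65% (7.81% in all), and the median change was −0.27. The count was 6 without NOS2-/- LPS 7 h replicate 3, against 1.95% of all probe sets. It was 16 without the wild-type mouse that stood apart, against 8.12%, and 17 when only the 2 groups compared were fitted, against 8.45%. Taking the wild-type saline mice as the base for both genotypes, the median share of the 7 h rise present at 22 h was 86.4% in NOS2-/- lungs, and 13 members kept at least 90% of it, where none did in wild-type lungs, or 2 (Ifitm3 and Lgals3bp) without the mouse that stood apart. Zbp1 was 1 of these 13 on its main probe set. Its second probe set stood 2.38 above the NOS2-/- saline mouse at 7 h and 1.27 at 22 h.

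**Figure D3:**
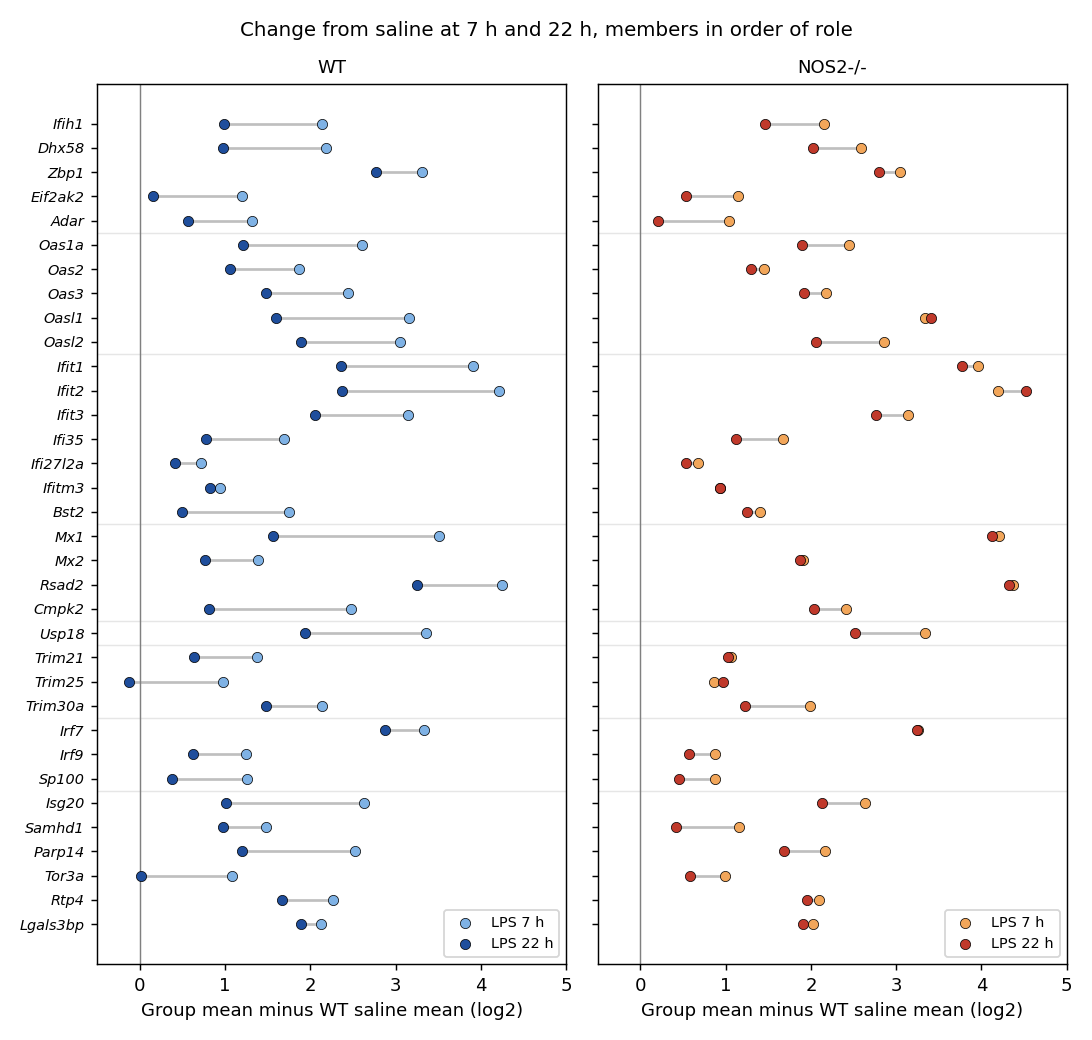
Group mean minus the wild-type saline mean (horizontal axis, log2) for each member after LPS at 7 h (light blue, orange) and 22 h (dark blue, red), in wild-type (left) and NOS2-/- mice (right), in order of role. The grey line joins the times; the median member lost 1.02 between them in wild-type and 0.27 in NOS2-/- lungs.

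The 11 members that fell in NOS2-/- lungs, each called on its main probe set, were Ifih1, Dhx58, Eif2ak2, Adar, Oasl2, Ifi35, Usp18, Trim30a, Isg20, Samhd1 and Tor3a. Of the 3 probe sets of Dhx58 only 1 was called, and the others were at −0.36 and −0.13. Of the 4 of Samhd1, 3 were called. Adar fell by 0.84 ± 0.08, from 10.62, 10.76 and 10.71 at 7 h to 9.80, 9.87 and 9.89. Usp18, the protease that removes ISG15 from proteins and blocks the interferon receptor, fell by 0.82 ± 0.18, from 12.31, 12.79 and 12.88 to 12.05, 11.72 and 11.73. Oasl2, an OAS-like protein, fell by 0.81 ± 0.11, from 12.07, 12.28 and 12.33 to 11.40, 11.41 and 11.45. In all these 3 genes the times did not overlap. The mice at 22 h lay below those at 7 h in 20 members and above them in 1, against 18.8% of all probe sets each way. Of the 5 sensors 4 fell on the main probe set, and none of the 4 MX and viperin genes did. In the other sensor, Zbp1, the main probe set was at −0.25 and not called, and the second was called lower, at −1.10.

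At 22 h after LPS, 22 members differed between the genotypes, against 16.4% of all probe sets. Of these, 20 were higher in NOS2-/- lungs, against 9.63% of all probe sets, and 2 were lower, against 6.81%. The median difference was 0.45, or 0.29 without the wild-type mouse that stood apart, against 0.01 over all probe sets. Groups did not overlap in 24 members that were higher and 3 that were lower in NOS2-/- lungs, against 19.1% and 11.3% of all probe sets (exact permutation P = 0.1 for each, the smallest possible). With only the 2 groups compared in the fit, 13 members were called, against 4.06%. Without the wild-type mouse that stood apart 20 were, against 26.6%. Markers of several cell types also differed: 4 of 7 lung markers (Sftpc, Sftpb, Ager and Cdh5) were higher in NOS2-/- lungs and 1 lower (Cldn5), 2 of 7 endothelial markers were higher (Cdh5 and Vwf) and 2 lower, and 5 of 8 markers of monocytes and macrophages were lower. Their part in the results was not tested.

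Mx1, Ifit2 and Oasl1 differed the most. Mx1 was at 8.69, 7.04 and 8.86 in wild-type and 10.92, 10.71 and 10.67 in NOS2-/- mice. Ifit2 was at 10.83, 10.00 and 11.20 against 12.87, 12.80 and 12.81. Oasl1, an OAS-like protein that in mice restrains translation of Irf7, was at 10.66, 10.03 and 10.51 against 12.26, 12.22 and 12.13. The 3 NOS2-/- mice lay close together in each of these genes and all above the wild-type mice, among which the mouse that stood apart was the lowest each time. At 7 h the wild-type mice had been at 9.73, 10.41 and 10.31 for Mx1, so its change to 22 h was −1.95 ± 0.41, or −1.37 without the mouse that stood apart. Mx1 was 5.93-fold higher in NOS2-/- lungs (2.57 ± 0.41, adjusted P = 0.00061), Ifit2 4.44-fold (2.15 ± 0.24, adjusted P = 3.9e-05) and Oasl1 3.49-fold (1.80 ± 0.17, adjusted P = 1.1e-05). Without that mouse the differences were 1.99, 1.81 and 1.62 and all 3 were called. C57BL/6 mice are known to carry a disrupted Mx1, so the transcript need not yield a working protein.

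**Figure D4:**
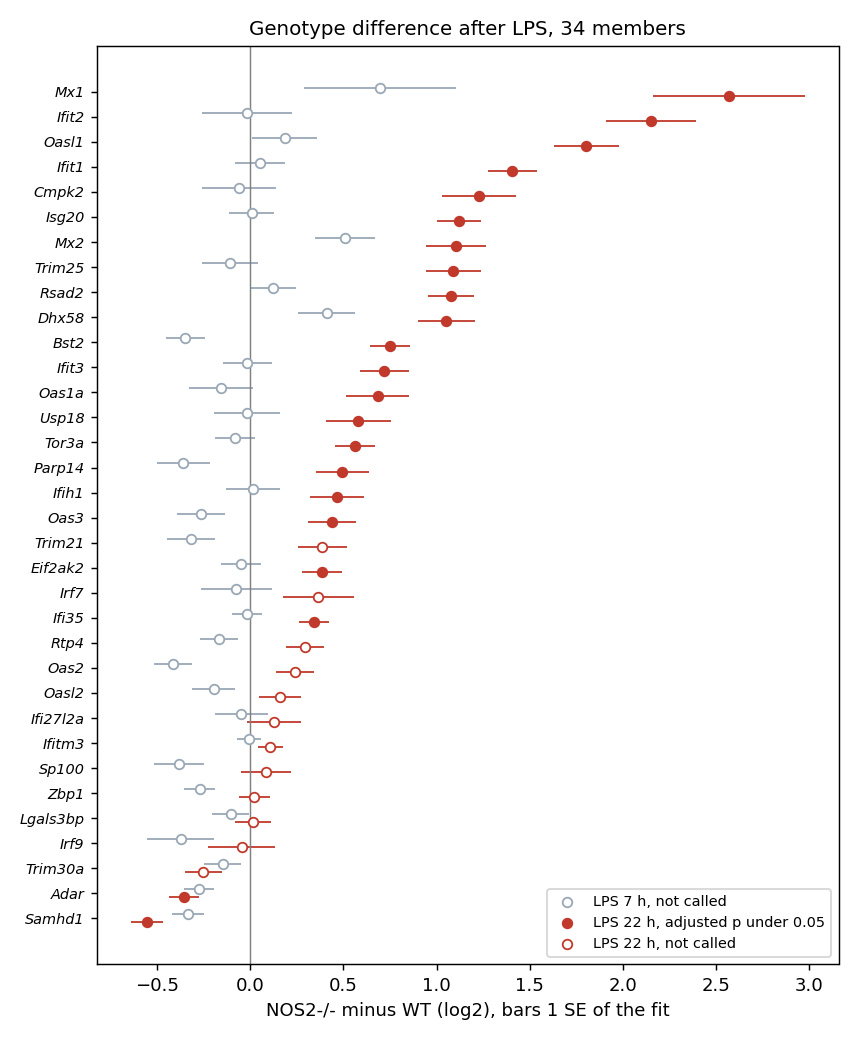
Difference between NOS2-/- and wild-type mice (horizontal axis, log2) at 7 h (grey) and 22 h (red) after LPS for the 34 members, with bars of 1 SE of the fit, ordered by the difference at 22 h. Filled points passed an adjusted P of 0.05: none at 7 h, and 20 above and 2 below 0 at 22 h.

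By role, all 4 genes of the MX and viperin group were higher in NOS2-/- lungs at 22 h. Mx2, a relative of Mx1, differed by 1.10 ± 0.16. Rsad2 and Cmpk2, which lie next to each other on chromosome 12 and act in turn, CMPK2 making the CTP that viperin converts, differed by 1.08 ± 0.12 and 1.23 ± 0.20. Cmpk2 was at 9.80, 9.54 and 9.73 in wild-type mice at 22 h, down from 11.08, 11.50 and 11.47 at 7 h, and at 10.89, 10.97 and 10.88 in NOS2-/- mice. Its fall in wild-type lungs, 1.66 on the log2 scale, was the third in size after those of Mx1 and Ifit2.

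Of the 7 IFIT and IFI proteins 5 were higher in NOS2-/- lungs. Ifit1 was at 11.93, 11.60 and 11.81 in wild-type mice and 13.23, 13.18 and 13.16 in NOS2-/- mice, a difference of 1.41 ± 0.13 with no overlap. Ifit3, which stabilizes IFIT1 on RNA, differed by 0.72 ± 0.13, and Bst2 (tetherin), which holds budding virions on the cell, by 0.75 ± 0.11. Ifi35, an interferon-induced protein with a leucine zipper, differed by 0.34 ± 0.08. Ifitm3 (0.11 ± 0.06) and Ifi27l2a (0.13 ± 0.14) were not called. Ifit2 and Ifit3 are neighbours on chromosome 19, with Ifit1 close by, and the 3 genes still differed in the size of the genotype difference, from 0.72 to 2.15.

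Among the 5 OAS genes, Oasl1, Oas1a (0.68 ± 0.17) and Oas3 (0.44 ± 0.13) were higher in NOS2-/- lungs, and Oas2 (0.24 ± 0.10) and Oasl2 (0.16 ± 0.11) were not called. The genotypes overlapped in Oas3. Oasl1 and Oasl2 lie side by side on chromosome 5 and have like sequences, and the probe sets of the 2 read a difference of 1.80 and 0.16. Among the 5 sensors, Dhx58 (LGP2), which tunes signalling by RIG-I and MDA5, differed by 1.05 ± 0.15, Ifih1 (MDA5), a sensor of long double-stranded RNA, by 0.47 ± 0.14, and Eif2ak2 by 0.38 ± 0.11. Zbp1 was at 10.75, 10.71 and 10.71 in wild-type and 10.80, 10.70 and 10.74 in NOS2-/- mice, which overlap, with a difference of 0.02 ± 0.08, and −0.16 on its second probe set.

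Isg20, an exonuclease for single-stranded RNA, was 1.12 ± 0.12 higher in NOS2-/- lungs and Trim25 1.09 ± 0.15. Trim25 was at 11.80, 11.60 and 11.63 in NOS2-/- mice and no higher than 10.83 in wild-type mice, and all 3 of its probe sets were called higher, at 0.78 to 1.12. Usp18 (0.58 ± 0.18), Tor3a (0.56 ± 0.11) and Parp14, an ADP-ribosyltransferase (0.49 ± 0.14), were also called. The 3 transcription and nuclear body genes, Irf7, Irf9 and Sp100, were not, at 0.37 ± 0.19, −0.04 ± 0.18 and 0.09 ± 0.13, nor were Trim21, an intracellular antibody receptor (0.39 ± 0.13), Rtp4 (0.29 ± 0.10) and Lgals3bp (0.02 ± 0.10). Without the wild-type mouse that stood apart, Ifih1, Oas3 and Usp18 were no longer called, at 0.28, 0.29 and 0.34, and the differences of Eif2ak2 and Parp14, still called, were 0.24 and 0.27.

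Samhd1 and Adar were lower in NOS2-/- lungs at 22 h. Samhd1, which breaks down the nucleotides that retroviruses need, was at 12.26, 11.93 and 12.28 in wild-type and 11.61, 11.63 and 11.58 in NOS2-/- mice, a difference of −0.55 ± 0.09. Adar was at 10.36, 10.08 and 10.19 in wild-type and 9.80, 9.87 and 9.89 in NOS2-/- mice, a difference of −0.36 ± 0.08. The groups did not overlap in either gene, nor in Trim30a, a TRIM protein of the mouse that limits inflammatory signalling, which was at −0.25 ± 0.10 with an adjusted P of 0.1 and was called at −0.31 without the wild-type mouse that stood apart. The Samhd1 call rests on 1 of its 4 probe sets, since the other 3 read 0.26, −0.02 and −0.12 and were not called, and on the mean of its probe sets the difference was −0.11 with an adjusted P of 0.23. Markers of monocytes and macrophages, which express Samhd1, were also lower: 5 of 8 measured, with a mean of 10.58 to 11.01 in wild-type and 10.44 to 10.49 in NOS2-/- mice, and their part in the difference was not tested. With only the 2 groups compared in the fit, neither Samhd1 (adjusted P = 0.053) nor Adar (adjusted P = 0.11) was called.

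**Figure D5:**
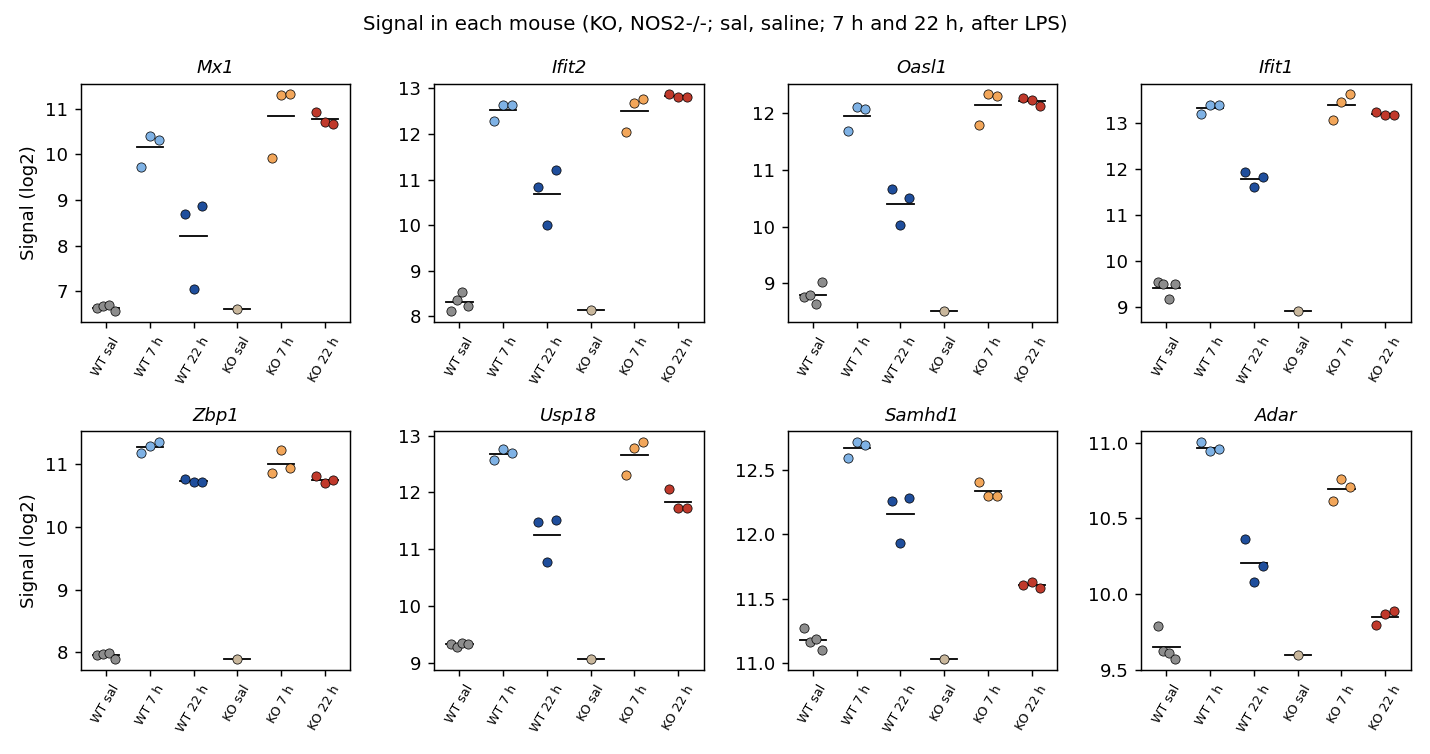
Log2 signal (vertical axis) in each mouse for 8 members by group; points are mice and lines are group means. In the upper row the NOS2-/- mice at 22 h lie above all wild-type mice at 22 h; Zbp1 overlaps between genotypes, and Samhd1 and Adar are lower in NOS2-/- mice.

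The change from 7 h to 22 h itself differed between the genotypes in 12 of 34 members, against 3.04% of all probe sets (2.49% upward), each time toward a smaller fall or a rise in NOS2-/- lungs. The median over all 34 was 0.62, and 0.53 without the wild-type mouse that stood apart, against −0.01 over all probe sets. The 12 were Oas2, Oasl1, Ifit1, Ifit2, Ifit3, Bst2, Rsad2, Cmpk2, Trim25, Isg20, Parp14 and Tor3a. The largest were those of Ifit2 (2.17 ± 0.34, adjusted P = 0.0033), Oasl1 (1.62 ± 0.24, adjusted P = 0.0026) and Ifit1 (1.35 ± 0.19, adjusted P = 0.0016). Ifit2 went from 12.05, 12.69 and 12.76 at 7 h to 12.87, 12.80 and 12.81 in NOS2-/- mice, and from 12.29, 12.63 and 12.63 to 10.83, 10.00 and 11.20 in wild-type mice. Oasl1 had been at 11.69, 12.11 and 12.07 in wild-type and 11.79, 12.33 and 12.31 in NOS2-/- mice at 7 h, and Ifit1 at 13.21, 13.40 and 13.38 in wild-type and 13.07, 13.46 and 13.62 in NOS2-/- mice. The genotypes thus overlapped at 7 h in all 3 genes. Mx1, with the largest difference at 22 h, was not among the 12 (1.87 ± 0.58, adjusted P = 0.096): it was at 9.92, 11.31 and 11.31 in NOS2-/- mice at 7 h, a wide spread. The count was 7 without wild-type LPS 7 h replicate 2 or without any 1 of the NOS2-/- mice at 22 h, against 1.27% to 1.56% of all probe sets. None of the 5 sensors was called, although a second probe set of Dhx58 (1.05) and of Eif2ak2 (0.68) was. The third probe set of Dhx58 was 0.18 above saline in wild-type lungs at 7 h and 0.06 at 22 h, not called.

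Other members with probe sets that differed in direction in some comparison were Trim30a, Rtp4, Trim21 and Cmpk2. At 22 h Dhx58 was at 9.77, 9.54 and 9.56 in wild-type and 10.76, 10.68 and 10.58 in NOS2-/- mice, and Trim30a at 12.70, 12.43 and 12.55 against 12.34, 12.24 and 12.34. Rtp4, a chaperone of membrane receptors, was at 12.20, 11.74 and 12.13 against 12.33, 12.32 and 12.31, and Trim21 at 10.76, 10.17 and 10.72 against 10.99, 10.93 and 10.89. Groups did not overlap in any of these 4 genes. The second probe sets of Rtp4 (0.50) and Trim21 (0.51) were called for the genotype difference in the change from 7 h to 22 h, at which their main probe sets were at 0.46 and 0.71 and not called. Rtp4 in NOS2-/- lungs from 7 h to 22 h was at −0.14 and 0.17 on its probe sets, and Cmpk2 between genotypes at 7 h at −0.06 and 0.23, none of them called.

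Across the 34 members, the rise at 7 h in wild-type mice and the genotype difference at 22 h, which share no array, correlated with Pearson r = 0.54, and r = 0.41 over the 32 members other than Mx1 and Ifit2. The difference at 22 h includes the wild-type mouse that stood apart, and r was not computed without it, nor over all genes. Members with an ISRE core match in the promoter window and those without rose by like amounts in wild-type lungs at 7 h, with medians of 2.14 over 11 members and 2.13 over 13. At 22 h the genotype difference had a median of 0.47 and ran from −0.25 (Trim30a) to 1.41 (Ifit1) with a match, and 0.34, from −0.55 to 2.15, without. Of the 7 members whose sequence is printed above, Ifit1, Ifit3, Bst2 and Rsad2 differed between genotypes in the change from 7 h to 22 h, Oas1a and Oas3 were at 0.84 and 0.70 with adjusted P of 0.074 and 0.054, and Trim30a was at −0.10, or 0.20 on its second probe set.

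The saline mice gave no called difference in any member by limma, against 1.41% of all probe sets, with 12 members at an unadjusted P under 0.05, in a comparison of 1 NOS2-/- with 4 wild-type mice. The differences ran from −0.67 ± 0.18 for Ifit3 to 0.60 ± 0.20 for Ifi27l2a. Without the wild-type LPS mouse that stood apart, 6 members were called, and so were 4.32% of all probe sets: Ifi27l2a and Rsad2 higher and Oasl2, Ifit3, Trim25 and Parp14 lower.

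Of 37 other genes of the pathway 32 were measured. In wild-type lungs 15 were called higher and 3 lower at 7 h, against 14.4% and 17.9% of all probe sets, and 12 higher and 5 lower at 22 h, against 12.8% and 20.0%. None of the 8 measured type I interferon genes, Ifnb1, Ifnab and 6 Ifna genes, was called higher in any LPS group, and Ifna2 was lower in wild-type lungs at 22 h (−0.32). Group means were 6.95 to 7.32 for Ifnb1 and 6.00 to 6.26 for Ifnab, below the array medians of 8.46 to 8.55. Those of Ifna1 and Ifna2 were 8.24 to 8.66. No mouse was studied before 7 h, so an earlier rise, or one too small for so low a signal, could not be seen. Ifng, the type II interferon, shares target genes with type I. In wild-type lungs Ifng stood 4.12 above saline 7 h after LPS and had fallen to 0.85 above saline by 22 h. In NOS2-/- lungs it stood 4.39 and later 2.22 above the saline mouse. The fall between the times was called in both genotypes (−3.27 and −2.16). Ifng was 1.26 higher in NOS2-/- lungs at 22 h, but the genotype difference in its change over time was not called (1.11, limma adjusted P = 0.20). Markers of plasmacytoid dendritic cells, a main source of interferon-α, had a mean over 4 of 5 of 8.95 to 9.04 in wild-type and 9.19 to 9.20 in NOS2-/- mice 22 h after LPS. Of the 4, only Ly6d was called higher in NOS2-/- lungs at 22 h, and none was called lower. After saline the mean was 9.47 to 9.57 in wild-type mice and 9.98 in the NOS2-/- mouse. In that mouse 2 of the 4, Ly6d and Cox6a2, were called higher than in wild-type saline mice. It is the mouse with the squamous epithelial and skeletal muscle transcripts described above, so its mean need not reflect plasmacytoid dendritic cells. The part of these cells in the results was not tested. Stat2, a signal carrier of the pathway, stood 1.99 and later 1.33 above saline in wild-type lungs, and 2.18 and later 2.57 in NOS2-/- lungs. Its genotype difference at 22 h, 0.51, was not called.

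At 22 h, 10 of these 32 pathway genes were higher and 4 lower in NOS2-/- lungs, against 9.63% and 6.81% of all probe sets. Higher were Socs1 (1.48), Ifng, Tlr3 (1.18), Irf8 (0.77), Ifngr1 (0.74), Tbk1 (0.67), Irf1 (0.65), Jak1 (0.57), Pias1 (0.45) and the receptor chain Ifnar2 (0.41), and lower were Ikbke, Irf2 (−0.92), the LPS receptor Tlr4 (−0.63) and Irf3 (−0.52). The change from 7 h to 22 h differed in 6 of them, against 3.04% of all probe sets: upward in NOS2-/- lungs for Socs1, a feedback inhibitor of the JAK kinases (1.82), Tlr3, a receptor for double-stranded RNA (1.13), Irf1 (1.11) and Irf8 (0.90), both transcription factors that answer to interferon, and Jak1 (0.50), and downward for Irf2, a repressor of interferon responses (−0.94). In wild-type mice the group mean of Socs1 was 10.30 at 7 h, then 8.66, and in NOS2-/- mice it was 9.97, then 10.14. Ikbke, a kinase that activates IRF3, ran the other way at both times, with differences of −0.99 at 7 h and −1.08 at 22 h. Irf1 was also called lower in NOS2-/- lungs at 7 h, at −0.46, so its difference in the change includes a lower level at 7 h.

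Over the 17 arrays, the genes outside the list whose signal was most like the mean of the centred members were Marcksl1, Pnp, Parp9, Pml, Casp4, Tnip1, Cxcl10, Gadd45g, Myd88 and Tlr2, with Pearson r from 0.986 to 0.994. Within the list, each member's correlation with the mean of the others ran from 0.77 for Ifi27l2a, 0.81 for Adar, 0.84 for Trim25 and 0.85 for Samhd1 to 0.995 for Usp18. The arrays share their groups, so this likeness includes the steps between groups.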

How the data were processed

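The deposited values are log2 expression values, 1 column per mouse, which the authors made from Affymetrix scans. The submitters' processing notes name affy and the study's methods name Affymetrix GeneChip software; the sources read here do not state the summary method. The values were used as deposited. Array medians were 8.46 to 8.55. Of 22690 probe sets, 64 controls were left out. The number of arrays limits the precision. The limma P values rest on the spread between mice within groups, pooled over the 6 groups. The single NOS2-/- saline mouse adds nothing to that estimate. A limma 3.58.1 model (R 4.3.3) with 6 group means was fitted to all 17 arrays, with the default empirical Bayes and Benjamini-Hochberg adjustment over 22626 probe sets. It was tested on simulated data. Between genotypes at 22 h it recovered 97.0% of 200 probe sets changed 2-fold and 76.5% of 200 changed 1.5-fold, among 22626. Of its calls 6.19% were false. The simulated noise was normal and independent, with the same spread in every group and no array that stood apart. The real arrays hold such an array, so these rates need not hold for them. The probe set with the highest mean stood for a gene. No filter on low values was used. Exact permutation tests were two-sided. The members, the lists of pathway and marker genes and the tests were chosen with earlier results of these data known. Values in every mouse are given for the 3 highest and 3 lowest members in wild-type LPS 22 h against saline, for the 3 largest called differences in each direction between genotypes and between times. The same holds for members whose probe sets differ in direction in a comparison between LPS groups or with wild-type saline, for the groups their results turn on. Alternatives were other normalization, probe-set rules, filters, thresholds, fits and leaving out each mouse.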

Additional observations from a re-analysis of the deposited data

Results flagged for a closer look

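In the wild-type saline group of 4 mice, 1 mouse lay far from the other 3, for the range of the group, in 4 of the 34 members tested for this, and chance alone gives this in about 1 group in 20. The 34 members were read in the same 4 mice and are not independent, so the count cannot be judged against that rate. The rule sets the gap against the range and takes no account of its size. Irf7 was at 10.06 in replicate 3, where the other 3 mice were at 9.11 to 9.18, and Irf9 was at 9.73 in replicate 2, where they were at 9.20 to 9.23. Ifit1 was lower in replicate 3 (9.16, the others 9.49 to 9.54). Usp18 was lower in replicate 2 by a small step (9.27, the others 9.33 to 9.34). The groups of 3 were not tested.

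The change from 7 h to 22 h after LPS differed between the genotypes, by the interaction term of the limma fit, in 12 members, all toward a higher value in NOS2-/- lungs. The differences were 2.17 for Ifit2, 1.62 for Oasl1, 1.35 for Ifit1, 1.29 for Cmpk2, 1.20 for Trim25, 1.11 for Isg20, 1.10 for Bst2, 0.96 for Rsad2, 0.85 for Parp14, 0.74 for Ifit3, 0.65 for Oas2 and 0.64 for Tor3a.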

How the results depend on the processing

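Under the alternatives 233 counts of members called stayed within 1.5 times the reported ones and 21 did not. For NOS2-/- against wild-type at 7 h, with none called, the count was 3 with array medians subtracted, 2 with the dimmest probe sets left out, 1 with 1 probe set per gene, 2 with the mean of the probe sets and 10 with only the groups compared. With only the groups compared it was 13 at 22 h and 17 for NOS2-/- 22 h against 7 h. At an adjusted P under 0.01 the difference between genotypes in the change over time was called in 7. The causes were not tested. Leaving out 1 mouse at a time, the count ran from 0 to 11 between genotypes at 7 h (11 without wild-type LPS 22 h replicate 2) and from 17 to 24 at 22 h. It ran from 28 to 32 for wild-type 22 h against saline, from 6 (without NOS2-/- LPS 7 h replicate 3) to 16 for NOS2-/- 22 h against 7 h, from 7 (without wild-type LPS 7 h replicate 2 or any 1 of the NOS2-/- LPS 22 h mice) to 16 for the change over time, and from 0 to 6 between saline mice (6 without wild-type LPS 22 h replicate 2). At 22 h against saline, uncalled in every case, Trim25 turned from −0.13 to 0.092 and Tor3a from 0.01 to −0.10 with the mean of the probe sets, and leaving out 1 mouse moved them from −0.25 to 0.11 and from −0.043 to 0.091. Same-numbered mice did not deviate together (correlations −0.38 to 0.36 over 30 pairs), and the fit with a replicate block called 18 members between genotypes at 22 h and 9 for the change over time. The NOS2-/- saline control is 1 mouse with foreign transcripts. Signal over background was not computed here, since the values hold no background estimate.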
